A study of Mus musculus with 21 samples.

Results

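The genes described are those of mouse tRNA Glu, whose name ends in GluCTC or GluTTC in the Pol III table or the tRNA-seq table, together with the cytosines of these loci in RNA bisulphite sequencing. The Pol III table lists 41 such genes among 3283 predicted tRNA genes, of which 29 are GluCTC and 12 are GluTTC. The tRNA-seq table lists 23 of them among 1143 genes, with 14 GluCTC and 9 GluTTC genes, and 10028 of its 32331 read sequences are assigned to them. The study's list of transcribed tRNA genes holds 249 genes and includes 6 GluCTC and 6 GluTTC genes. Of 122736 cytosines tested over the transcriptome, 256 lie in these 12 genes, 132 in GluCTC and 124 in GluTTC.

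Back skin was taken from male mice on postnatal day 25, at the start of anagen, the growth phase of the hair cycle. NSun2−/− mice carry a gene-trap insertion (GGTC clone) in every cell, and WT mice came from the same breedings on a C57Bl6/J CBA F1 background. RNA bisulphite sequencing and tRNA-seq have 4 WT and 4 NSun2−/− libraries each, and Pol III ChIP-seq has 2 WT libraries, 1 of NSun2−/−, with an input from either genotype, all made from the pooled skin of 3 mice. The descriptions number the RNA libraries but do not tie each to 1 mouse, so that p-values measure the spread between libraries. In whole skin, fewer cells of a type and less RNA per cell cannot be told apart.

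Glutamate tRNAs decode the codons GAG and GAA. GluCTC, with the anticodon CTC, reads GAG, and GluTTC, with the anticodon TTC, is the isoacceptor for GAA. NSun2 is an RNA methyltransferase that adds a methyl group to the fifth carbon of cytosines in tRNAs, mainly where the variable loop meets the TΨC arm, the variable-loop (VL) junction. In bisulphite sequencing an unmethylated cytosine is converted and read as T, whereas a methylated cytosine is protected and read as C. A tRNA cut in its anticodon loop leaves a 5′ tRNA fragment and a 3′ fragment. CCA is added to the 3′ end of each tRNA after transcription and is not part of the gene.

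The sequences of the GluTTC genes are shown first because they hold the 3 cytosines at the VL junction, which GluCTC also has and carries at different methylation levels. They were read from mm9, and capitals mark the anticodon (gene nucleotides 34 to 36) and the VL junction (gene nucleotides 47 to 49, which are C48, C49 and C50 in standard tRNA numbering). Up to nucleotide 38 the gene and standard numbers are the same, and in the 3′ part the standard number is 1 higher. The genes of both isoacceptors are 72 nucleotides long.
chr13.trna105-GluTTC: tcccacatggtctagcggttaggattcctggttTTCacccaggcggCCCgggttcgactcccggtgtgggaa
chr1.trna1547-GluTTC: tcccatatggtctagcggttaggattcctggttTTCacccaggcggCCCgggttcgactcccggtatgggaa

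All 6 transcribed GluCTC genes have the same sequence. They are chr1.trna709, chr10.trna81, chr11.trna1912, chr13.trna1001, chr3.trna303 and chr3.trna745. The GluTTC genes have 2 sequences. The form with C at nucleotide 6 is that of 4 genes, chr13.trna105 (chr13:23555404-23555475, plus strand), chr14.trna347 (chr14:76552581-76552652, plus strand), chr7.trna337 (chr7:65654685-65654756, plus strand) and chr9.trna961 (chr9:104310997-104311068, minus strand). The form with T at nucleotide 6 is that of the other 2 genes, chr1.trna1547 (chr1:34491657-34491728, minus strand) and chr14.trna359 (chr14:79881475-79881546, plus strand).

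The GluTTC forms differ from each other by C6T and G66A, which face each other in the acceptor stem, and share 70 of 72 nucleotides. GluCTC and the GluTTC form of chr13.trna105 share 57 of 72 nucleotides and differ at 15, which lie in the acceptor stem, the D arm, the anticodon stem and loop and the TΨC arm. Between nucleotides 43 and 57, the stretch around the VL junction, the isoacceptors are identical.

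Before the results on methylation, the background of tRNA Glu in the bisulphite libraries has to be given, since it differed between libraries. The cytosines 5′ of the anticodon, which in GluCTC include 1 in the anticodon loop at nucleotide 32, gave the level of unconverted reads in the same molecules away from the VL junction. In GluCTC this level was 3.69%, 3.77%, 3.03% and 9.60% in the WT libraries and 35.2%, 38.5%, 1.26% and 19.5% in the NSun2−/− libraries. In GluTTC it was 10.95%, 8.09%, 12.2% and 25.5% in WT and 50.7%, 54.4%, 1.41% and 41.4% in NSun2−/−. NSun2−/− library 3 thus had the lowest background of all 8 libraries in both isoacceptors, and the other NSun2−/− libraries had the highest. In GlyGCC, another tRNA of the same libraries, this level was only 1.56%, 3.79%, 0.587% and 1.17% in NSun2−/−, so the high values were not shared by all tRNAs. Over the genotypes the difference was 18.6 points in GluCTC and 22.8 points in GluTTC (exact two-sided permutation test, p = 0.143, adjusted p = 0.143 for both). How far incomplete conversion enters the levels at other cytosines of the NSun2−/− libraries was not tested, and results at the VL junction are therefore also given with the background subtracted and for NSun2−/− library 3 alone. The median coverage of a cytosine was 600.5 to 3224 reads per library in GluCTC and 178.5 to 973 reads in GluTTC.

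In WT skin the isoacceptors carried different patterns at the VL junction. GluCTC was unconverted at C48, C49 and C50, with increasing levels in that order. GluTTC was almost fully unconverted at C49 and C50, and at C48 it was near the mean of its cytosines 5′ of the anticodon. Its WT mean of 15.0% at C48 was below nucleotides 12 (23.9%) and 16 (23.6%). It was above the nearer nucleotides 44 (8.40%) and 55 (3.76%). Whether C48 of GluTTC was at background thus depends on the cytosines taken as background. In NSun2−/− skin both isoacceptors fell at C49 and C50, and neither differed at C48 beyond the spread between libraries. Each value below is the mean over the 6 genes of an isoacceptor in 1 library, with every cytosine weighted equally.

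**Figure D1:**
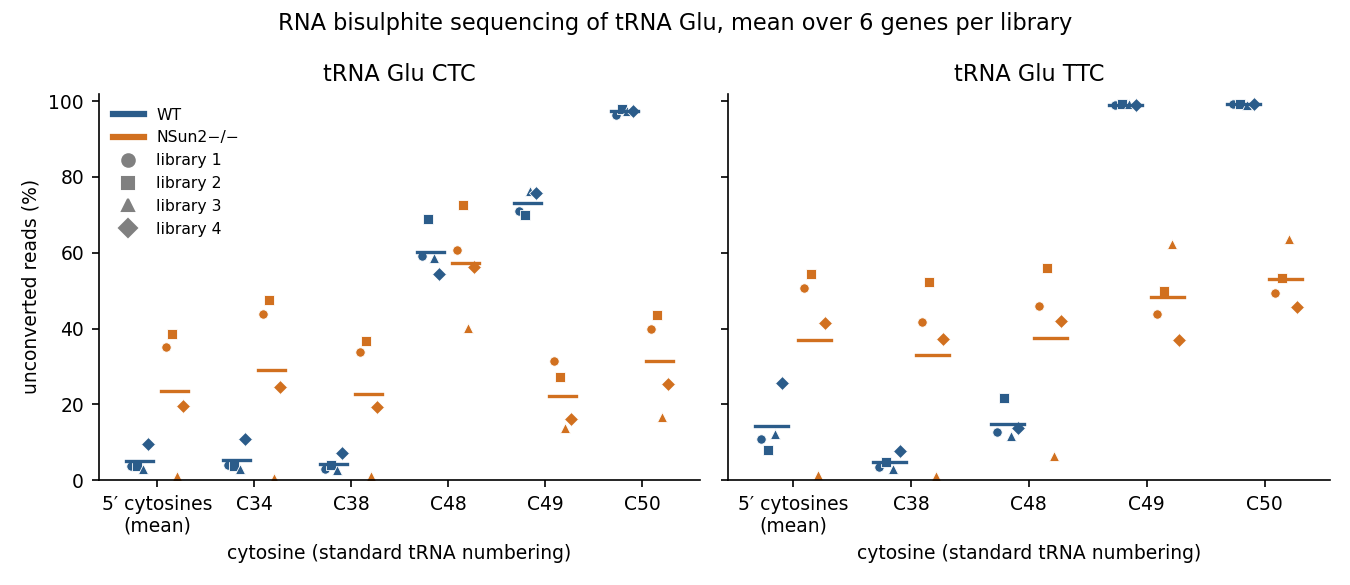
Percent of unconverted reads (y axis, linear) at the named cytosines of tRNA Glu (x axis) in 4 WT and 4 NSun2−/− bisulphite libraries, where each point is 1 library, the shape gives the library number and the short line is the mean of 4 libraries. At C49 and C50 every WT point lies above every NSun2−/− point in both isoacceptors, and at C48 GluCTC is near 60.3% in WT while GluTTC is near 15.0%.

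At C50, the position with the highest level in GluCTC, the WT libraries had 96.2%, 97.9%, 97.5% and 97.5% unconverted reads. The NSun2−/− libraries had 40.0%, 43.6%, 16.7% and 25.3%. The genotypes did not overlap, and the mean fell by 65.9 points (exact two-sided permutation test over 70 assignments, p = 0.0286, adjusted p = 0.0429 over 6 tests), where 0.0286 is the smallest p that 4 against 4 libraries allow.

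GluTTC at C50 had 99.2%, 99.3%, 99.02% and 99.1% in WT. In NSun2−/− it had 49.5%, 53.4%, 63.6% and 45.8%. The mean fell by 46.1 points with no overlap (exact permutation test, p = 0.0286, adjusted p = 0.0429).

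Both isoacceptors were mostly unconverted in WT at C50 and C49, and they differed more at C49. GluCTC had 71.0%, 69.9%, 76.3% and 75.8% in WT and 31.5%, 27.2%, 13.7% and 16.2% in NSun2−/−. The mean fell by 51.1 points, and no NSun2−/− library reached the lowest WT library (exact permutation test, p = 0.0286, adjusted p = 0.0429). GluTTC had 98.9%, 99.1%, 99.2% and 99.01% in WT and 44.0%, 49.8%, 62.4% and 36.9% in NSun2−/−. Here the mean fell by 50.8 points, again with no overlap (exact permutation test, p = 0.0286, adjusted p = 0.0429).

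C48 behaved differently in both. In GluCTC the WT libraries had 59.1%, 68.9%, 58.6% and 54.5%, and the NSun2−/− libraries had 60.8%, 72.7%, 40.0% and 56.1%. The ranges overlapped and the means of 60.3% and 57.4% differed by less than the spread between libraries (difference −2.86 points, exact permutation test, p = 0.800, adjusted p = 0.800). In GluTTC the WT libraries had 12.7%, 21.7%, 11.7% and 13.8%, and the NSun2−/− libraries had 45.9%, 56.0%, 6.54% and 42.0%. The higher values in NSun2−/− were those of the 3 libraries with a high background, and library 3 was below all WT libraries (difference 22.6 points, p = 0.143, adjusted p = 0.171, exact permutation test). Without NSun2−/− library 3 the difference was 32.99 points (adjusted p = 0.0343, exact permutation test).

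Subtracting the background of the same isoacceptor and library, scaled to full conversion, lowered the NSun2−/− values at C49 and C50, some of them to below 0. A value below 0 means that the cytosines 5′ of the anticodon were more unconverted than the cytosine itself. In NSun2−/− library 2, for example, C49 of GluCTC had 27.2% against a background of 38.5%. There the subtraction was too large, which also enters the differences below. The differences at C49 and C50 grew to −75.7 and −87.5 points in GluCTC and to −91.3 and −82.5 points in GluTTC (exact permutation test, adjusted p = 0.0429 for each). At C49, GluCTC then had −5.83%, −18.3%, 12.6% and −4.17% in NSun2−/−, and at C50 it had 7.33%, 8.25%, 15.7% and 7.22%. GluTTC had −13.8%, −10.03%, 61.8% and −7.74% at C49, and −2.49%, −2.07%, 63.1% and 7.40% at C50. Thus 3 NSun2−/− libraries lay between −18.3% and 8.25% at these positions, whereas library 3, with almost none to subtract, kept 61.8% and 63.1% at C49 and C50 of GluTTC.

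At C48 the corrected level of GluCTC was 57.6%, 67.7%, 57.3% and 49.7% in WT and 39.5%, 55.7%, 39.3% and 45.5% in NSun2−/−. The difference was then −13.1 points (exact permutation test, p = 0.0571), and all 8 libraries were at 39.3% or more. For GluTTC the corrected C48 values lay between −15.8% and 14.9% in WT and between −9.79% and 5.20% in NSun2−/−, on both sides of 0.

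NSun2−/− library 3, taken alone, was the library in which background played the smallest part. Within it, GluCTC had 40.0% at C48, 13.7% at C49 and 16.7% at C50, and GluTTC had 6.54%, 62.4% and 63.6% at the same positions. At the remaining cytosines tested, 19 positions in GluCTC and 18 in GluTTC, its means over the genes were 0.122% to 4.83% and 0.344% to 6.08%.

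The difference between the isoacceptors was tested within libraries, since both come from the same reaction. At C48, GluCTC exceeded GluTTC in 8 of 8 libraries, by 45.3 ± 3.06 points (SD, n = 4) in WT and 19.8 ± 9.19 points in NSun2−/− (32.6 points over all, exact sign-flip permutation test, p = 0.0078, adjusted p = 0.0098 over 5 tests, the smallest p that 8 libraries allow). At C49 GluCTC was lower in 8 of 8 libraries, by 25.8 ± 3.22 points in WT and 26.1 ± 15.7 points in NSun2−/− (−26.0 points over all, exact sign-flip permutation test, adjusted p = 0.0098). At C50 it was also lower in 8 of 8, but by only 1.88 ± 0.751 points in WT against 21.7 ± 17.6 points in NSun2−/− (−11.8 points over all, exact sign-flip permutation test, adjusted p = 0.0098). At the cytosines 5′ of the anticodon GluCTC was lower in 8 of 8 libraries too, by 11.3 points over all (exact sign-flip permutation test, adjusted p = 0.0098).

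After the background was subtracted, the difference at C48 was 51.5 points and held in 8 of 8 libraries (exact sign-flip permutation test, adjusted p = 0.0234). At C49 and C50 it no longer passed, with −19.3 points (exact sign-flip permutation test, adjusted p = 0.0586) and −4.37 points. In WT the corrected differences were −27.0 ± 3.11 points at C49 and −1.88 ± 0.786 points at C50 (SD, n = 4), as before, and in NSun2−/− they were −11.5 ± 26.1 and −6.87 ± 27.5 points. The values that follow are from the levels as measured, without the subtraction. In them, a dependence of GluCTC minus GluTTC on the genotype was not shown after adjustment at C48 (−25.5 points) or C50 (−19.8 points). Both had p = 0.0286 and adjusted p = 0.0714 (exact permutation test). At C49 the genotypes gave a like difference as measured (−0.305 points, p = 1.00, exact permutation test). Without NSun2−/− library 3, again as measured, the changes at C48 and C50 passed, with −30.0 and −11.4 points (exact permutation test, adjusted p = 0.0357 for both). That at C49 changed sign to 7.22 points and passed as well (exact permutation test, adjusted p = 0.0357).

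Gene by gene, edgeR's quasi-likelihood test over all 122736 cytosines called C49 and C50 lower in NSun2−/− in 6 of 6 GluCTC genes and 6 of 6 GluTTC genes. These are 12 calls in each isoacceptor, where 0.147% of all cytosines tested were called lower. C49 in GluCTC fell by 44.4 to 58.1 points, with adjusted p between 6.38e-07 and 0.0029, and C50 fell by 64.3 to 68.0 points, with adjusted p between 9.49e-28 and 5.03e-12. In GluTTC the adjusted p lay between 7.89e-23 and 2.25e-08 at C49 and between 7.91e-22 and 2.96e-08 at C50. With limma on logit values, C49 was called in 1 of 6 GluCTC genes, C50 in 6 of 6, and both positions in 6 of 6 GluTTC genes.

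At C48 edgeR called 0 of 12 genes. At an unadjusted p under 0.05 it had 0 of 6 GluCTC genes and 6 of 6 GluTTC genes, the latter with higher levels in NSun2−/−, and limma called 0 of 12 with 1 unadjusted. The identical GluCTC genes did not have identical values. At chr1.trna709 C48 had the lowest mean of the 6 genes in WT, 34.3%, and C49 the highest, 84.6%, while in the other 5 genes C48 lay between 58.2% and 68.7%. The nucleotides of these genes cannot tell their reads apart, so that values per gene are not independent.

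Among the GluTTC genes, chr9.trna961 had the highest C48 level in WT, with 25.6%, 42.8%, 25.4% and 22.2%, and chr1.trna1547 the lowest, with 4.497%, 8.72%, 4.36% and 5.57%. In NSun2−/− library 3 the same 6 genes ranged from 25.9% at chr9.trna961 to 87.1% at chr7.trna337 at C49. Since 4 of the 6 GluTTC genes, chr9.trna961 among them, have the same sequence, these values per gene are not independent either.

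Of the anticodon-loop cytosines, C34 is present only in GluCTC, and C38 in both. C34 was unconverted in 3.95%, 3.79%, 3.00% and 10.8% of reads in WT and in 43.8%, 47.5%, 0.623% and 24.6% in NSun2−/−, which follows the background of each library. The difference of 23.7 points did not pass (exact permutation test, p = 0.143). C38 had 2.80% to 7.17% in WT and 1.23% to 36.8% in NSun2−/− in GluCTC, and 2.98% to 7.82% and 1.07% to 52.4% in GluTTC (exact permutation test, p = 0.143 for both). In WT no cytosine outside the VL junction had a mean over the genes above 14.1% in GluCTC, at nucleotide 62, or 23.9% in GluTTC, at nucleotide 12.

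Calls of higher levels in NSun2−/− followed the same libraries. edgeR called 28 cytosines higher in GluCTC and 19 in GluTTC, against 0.114% of all cytosines tested, and none of them was at the VL junction. With at least 30 reads, or with limma, 0 were called higher. Without NSun2−/− library 3 the counts were 101 and 83, and without NSun2−/− library 1 they were 0 and 0.

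Next to other isoacceptors known as NSun2 substrates, the C49 level of GluTTC was close to that of AspGTC in WT and above it in NSun2−/−. GluTTC minus AspGTC was 1.94 ± 1.13 points in WT and 20.4 ± 8.08 points in NSun2−/− (SD, n = 4), a change of 18.5 points that did not pass after adjustment over 4 tests (exact permutation test, p = 0.0286, adjusted p = 0.0571). GluCTC minus AspGTC was −23.9 ± 2.36 points in WT and −5.66 ± 8.66 points in NSun2−/−, a change of 18.2 points (exact permutation test, p = 0.0286, adjusted p = 0.0571). These levels are as measured, without subtraction of the background, which in NSun2−/− was 50.7%, 54.4%, 1.41% and 41.4% in GluTTC against 23.2%, 30.0%, 1.14% and 13.3% in AspGTC. In libraries 1, 2 and 4 that gap was larger than the difference of GluTTC from AspGTC at C49. In library 3, where the backgrounds were close to each other, GluTTC exceeded AspGTC by 32.5 points. The part of the background in the result was not tested. Against GlyGCC, also without subtraction, GluCTC differed by 1.90 points in WT and 1.38 points in NSun2−/−, and GluTTC by 27.7 and 27.5 points (exact permutation test of the change, p = 1.00 for both).

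In tRNA-seq the isoacceptors were found in different kinds of reads. GluCTC was found mainly as 5′ fragments, mature tRNA and full-length reads without CCA, while most GluTTC reads were mature tRNA. Libraries held 17352126 to 36749727 counts, of which GluCTC took 6.12% to 9.06% and GluTTC 1.81% to 6.35%. Genes outside the list of transcribed genes held 0.888% of the tRNA Glu counts. The 8 counts of a sequence had a common divisor above 1 in 65.03% of the 10028 tRNA Glu sequences, so counts are not independent reads, and no counting intervals are given.

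The most counted 5′ fragments of GluTTC are shown because they give the nucleotides at which these reads most often ended. Each starts at nucleotide 1, and capitals mark anticodon nucleotides.
GluTTC 5′ fragment, nucleotides 1 to 33: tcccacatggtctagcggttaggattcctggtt
GluTTC 5′ fragment, nucleotides 1 to 34: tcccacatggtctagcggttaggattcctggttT
GluTTC 5′ fragment, nucleotides 1 to 35: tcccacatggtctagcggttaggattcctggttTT

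5′ fragments were reads of 25 to 40 nucleotides from the first nucleotide of a gene. GluCTC 5′ fragments took 3.27%, 3.40%, 2.96% and 3.67% of all counts in WT and 3.82%, 4.57%, 4.62% and 2.26% in NSun2−/−. In NSun2−/− 3 libraries were above all WT libraries and 1 was below them. With TMM scaling the log2 fold change was 0.38 ± 0.21 (SE) and did not pass (edgeR quasi-likelihood test, adjusted p = 0.193 over 42 families). GluTTC 5′ fragments took 0.322%, 0.226%, 0.209% and 0.268% in WT and 0.268%, 0.398%, 0.374% and 0.279% in NSun2−/−, and the ranges overlapped. Their log2 fold change was 0.56 ± 0.26 and did not pass either (edgeR quasi-likelihood test, adjusted p = 0.110). Of the 42 families 21.4% were called higher in NSun2−/−, neither tRNA Glu family among them, and the median log2 fold change over all families was 0.12. Scaling by the total of all tRNA counts gave 0.20 for GluCTC and 0.36 for GluTTC, beside a median of −0.07.

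**Figure D2:**
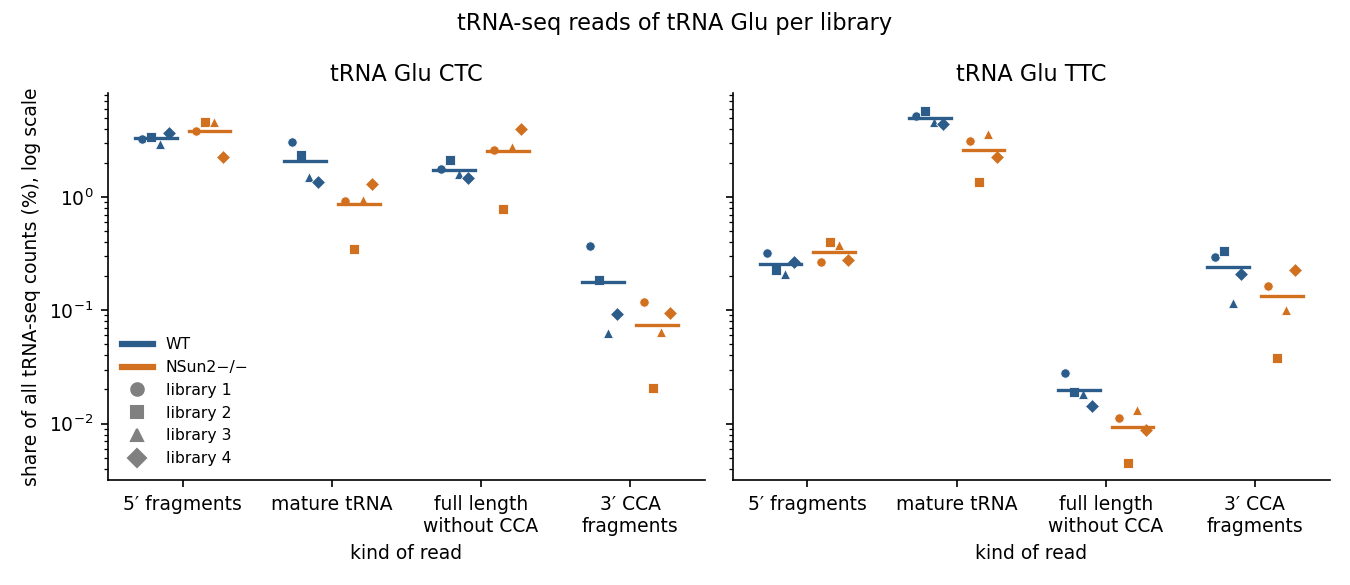
Share of all tRNA-seq counts of a library (y axis, percent on a log scale) taken by 4 kinds of tRNA Glu reads (x axis) in 4 WT and 4 NSun2−/− libraries, where each point is 1 library and the short line is the mean. GluCTC 5′ fragments are near 3.33% in WT against 0.256% for GluTTC, and mature GluTTC is higher in every WT library than in every NSun2−/− library.

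GluCTC gave many more 5′ fragments than GluTTC in every library. The log2 ratio of GluCTC to GluTTC 5′ fragments was 3.35, 3.91, 3.82 and 3.78 in WT and 3.83, 3.52, 3.63 and 3.02 in NSun2−/−. Over the 8 libraries this is a 12.2-fold difference (mean log2 ratio 3.61, higher in 8 of 8 libraries, exact sign-flip permutation test, p = 0.0078). The ratio was 13.1-fold in WT and 11.3-fold in NSun2−/−, and the genotypes did not differ beyond the spread (−0.21 on the log2 scale, exact permutation test, p = 0.400). For mature tRNA the order was the opposite, with log2 ratios of GluCTC to GluTTC between −1.71 and −0.76 in WT and between −1.96 and −0.80 in NSun2−/−.

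Mature tRNA was counted as reads that end in CCA and cover at least 90% of a gene. Mature GluTTC took 5.13%, 5.72%, 4.57% and 4.44% of all counts in WT and 3.11%, 1.34%, 3.63% and 2.26% in NSun2−/−. Mature GluCTC took 3.03%, 2.37%, 1.49% and 1.36% in WT and 0.917%, 0.348%, 0.931% and 1.30% in NSun2−/−. In both isoacceptors the genotypes did not overlap. These levels are shares of a library and depend on all of its other reads. Scaled by the total of all tRNA counts, the log2 fold changes were −1.24 ± 0.45 for GluCTC and −0.94 ± 0.35 for GluTTC (SE, edgeR quasi-likelihood test, adjusted p = 0.106 for both).

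With TMM, which scales on the mature tRNA of all families, they were −0.34 ± 0.23 for GluCTC and −0.04 ± 0.26 for GluTTC (edgeR quasi-likelihood test, adjusted p = 0.390 and 0.958 over 18 families). The median over the families tested was −0.88 under the scaling by total counts and −0.06 with TMM, so that the scalings differ by a shift that most mature tRNA families shared. Where CCA was not required, the log2 fold change of GluCTC with TMM was 0.46 in place of −0.34, and neither passed. Of the 18 families 0.0% were called lower and 0.0% higher by edgeR, with 2 at an unadjusted p under 0.05, and DESeq2 called 0 with 4 unadjusted. Of all mature tRNA counts, GluTTC held 62.9 ± 5.75% in WT and 66.7 ± 8.36% in NSun2−/−, and GluCTC held 25.2 ± 5.52% and 22.1 ± 6.13% (SD, n = 4), so that TMM on this table rests largely on a few families.

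The make-up of each isoacceptor's own reads does not depend on scaling between libraries. The mature share of GluCTC reads was 33.4%, 27.2%, 22.8% and 19.2% in WT and 11.4%, 5.68%, 10.5% and 15.9% in NSun2−/−. The mean went from 25.7% to 10.9% with no overlap, a difference that did not pass over the 8 shares tested (exact permutation test, p = 0.0286, adjusted p = 0.0762). The share of 5′ fragments among GluCTC reads was 36.1%, 39.2%, 45.3% and 51.9% in WT and 47.4%, 74.8%, 52.1% and 27.6% in NSun2−/−, with overlapping ranges (exact permutation test, p = 0.543). Full-length GluCTC reads without CCA made up 19.5%, 24.2%, 24.3% and 20.8% in WT and 32.1%, 12.9%, 30.9% and 48.9% in NSun2−/− (exact permutation test, p = 0.314).

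In GluTTC the share of 5′ fragments was 5.53%, 3.56%, 4.23% and 5.40% in WT and 7.48%, 22.0%, 9.01% and 9.88% in NSun2−/−. Every NSun2−/− library was above every WT library, and the mean went from 4.68% to 12.1% (exact permutation test, p = 0.0286, adjusted p = 0.0762). The mature share was 88.2%, 90.2%, 92.5% and 89.4% in WT and 86.6%, 74.4%, 87.3% and 80.1% in NSun2−/−, also without overlap (exact permutation test, p = 0.0286, adjusted p = 0.0762). Full-length GluTTC reads without CCA were rare, at 0.250% to 0.482% in all 8 libraries.

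5′ fragments of both isoacceptors ended mainly at the start of the anticodon, and both had further ends inside the anticodon stem. GluTTC fragments ended most often at nucleotide 33, the last before the anticodon, with 39.1% to 44.2% of fragments in WT and 33.004% to 35.1% in NSun2−/−. The next ends were nucleotide 34, with 11.2% to 19.0% and 18.0% to 21.5%, and nucleotide 35. In the anticodon stem GluTTC fragments ended at nucleotide 28 in 4.53% to 8.07% and at nucleotide 30 in 2.61% to 10.7% over the 8 libraries. Before that stem, at nucleotide 26, they ended in 6.23% to 12.0% in WT and 1.05% to 6.79% in NSun2−/−. GluCTC fragments ended at nucleotides 33 and 34 in most libraries, with 17.4% to 37.5% at nucleotide 34 in WT and 11.8% to 32.6% in NSun2−/−. A further 12.6% to 14.7% in WT and 9.53% to 13.9% in NSun2−/− ended at nucleotide 32. At nucleotide 30, in the anticodon stem, GluCTC had 33.98%, 3.49%, 6.41% and 12.3% in WT and 12.3%, 44.5%, 19.1% and 15.2% in NSun2−/−. The end at nucleotide 30 was thus most frequent in WT library 1 and NSun2−/− library 2, and the genotypes overlapped.

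**Figure D3:**
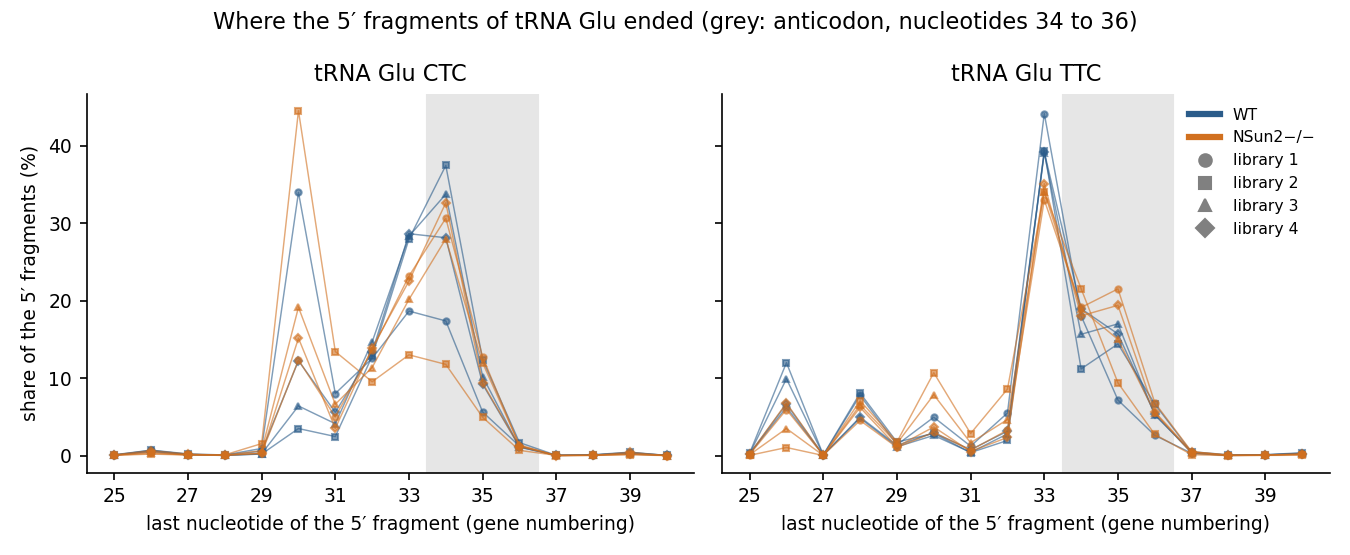
Share of the 5′ fragments of each isoacceptor (y axis, percent) that ended at each gene nucleotide (x axis), with 1 line per library, WT in blue and NSun2−/− in orange, and the anticodon shaded in grey. GluTTC peaks at nucleotide 33 in all 8 libraries, and GluCTC has a second peak at nucleotide 30 that reaches 33.98% in WT library 1 and 44.5% in NSun2−/− library 2.

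The mean fragment length did not differ between genotypes beyond the spread. It was 32.8 ± 0.620 nucleotides in WT and 32.5 ± 0.693 in NSun2−/− for GluCTC (SD, n = 4, exact permutation test, p = 0.514) and 32.5 ± 0.264 and 32.8 ± 0.205 for GluTTC (exact permutation test, p = 0.171). The share of fragments ending between nucleotides 33 and 37, in or next to the anticodon, was 75.3% in both genotypes for GluTTC and 65.7% and 56.4% for GluCTC. GluCTC was below GluTTC in 7 of 8 libraries, by 14.3 points, which did not pass over 6 tests (exact sign-flip permutation test, p = 0.0234, adjusted p = 0.141).

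The 2 forms of GluTTC can be told apart in 5′ fragments by nucleotide 6. C was read there in 75.1% to 76.2% of GluTTC 5′ fragments in WT and 77.7% to 80.4% in NSun2−/−, and T in 23.7% to 24.2% and 19.6% to 22.2%. The form of chr1.trna1547 and chr14.trna359 thus gave a smaller share of the GluTTC fragments in each NSun2−/− library than in any WT library, a difference that was found after the values were seen and was not tested.

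3′ fragments that end in CCA took at most 0.366% of all counts in any library. The 2 most counted ones of GluTTC and the second most counted of GluCTC are shown, with CCA in capitals. The most counted GluCTC one, not shown, starts at nucleotide 24. It made up 3.41% of GluCTC 3′ fragments in WT and 4.18% in NSun2−/−, on average. The one shown made up 4.37% and 1.90%.
GluCTC 3′ fragment from nucleotide 36: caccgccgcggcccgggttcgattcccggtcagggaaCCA
GluTTC 3′ fragment from nucleotide 36: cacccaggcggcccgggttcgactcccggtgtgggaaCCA
GluTTC 3′ fragment from nucleotide 58: ctcccggtgtgggaaCCA

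3′ fragments of GluTTC started at nucleotide 36, the last of the anticodon, in 33.2% to 51.8% of counts, and at nucleotide 58 in 20.4% to 36.6%. Those of GluCTC started at many nucleotides, with 7.24% to 15.9% at nucleotide 24 and 4.01% to 14.6% at nucleotide 36. GluCTC 3′ fragments took 0.366%, 0.184%, 0.0624% and 0.0919% of all counts in WT and 0.118%, 0.0208%, 0.0638% and 0.0942% in NSun2−/−. GluTTC 3′ fragments took 0.298%, 0.336%, 0.116% and 0.207% in WT and 0.162%, 0.0377%, 0.101% and 0.228% in NSun2−/−. Neither difference passed, with log2 fold changes of −0.04 ± 0.37 and 0.35 ± 0.29 (SE, edgeR quasi-likelihood test, adjusted p = 0.968 and 0.479 over 44 families), where 9.09% of families were called lower and 11.4% higher. Under the scaling by total counts the values were −1.25 and −0.85, and the family calls were 15 lower and 0 higher in place of 4 and 5, with a median over all families of −1.17 in place of 0.11.

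GluCTC reads that covered nearly the whole gene often lacked CCA, and more so in NSun2−/−. This comparison was added after the data were seen. Among reads over at least 90% of the gene, those ending in CCA made up 63.2%, 52.9%, 48.4% and 47.999% in WT and 26.2%, 30.6%, 25.4% and 24.6% in NSun2−/−. The mean fell by 26.5 points, with no overlap between genotypes (exact permutation test, p = 0.0286, adjusted p = 0.0429 over 3 families). In GluTTC the same share was 99.5% to 99.7% in all 8 libraries (difference 0.0379 points, exact permutation test, p = 0.714), whereas in AspGTC it fell by 1.71 points, from 97.7% in WT to 96.0% in NSun2−/− (exact permutation test, p = 0.0286, adjusted p = 0.0429). The genotype difference was larger in GluCTC than in GluTTC by 26.5 points and larger than in AspGTC by 24.7 points (exact permutation test, p = 0.0286, adjusted p = 0.0286 for both). AspGTC was the only family outside tRNA Glu examined for CCA ends, and GlyGCC was not. Among reads without a mismatch to the gene, the share fell by 28.6 points in GluCTC, by 9.87 points in AspGTC and by 0.0902 points in GluTTC, opposite in sign to the value over all reads (exact permutation test, adjusted p = 0.0286 for each), and the genotype difference of GluCTC was larger than that of AspGTC by 18.8 points.

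**Figure D4:**
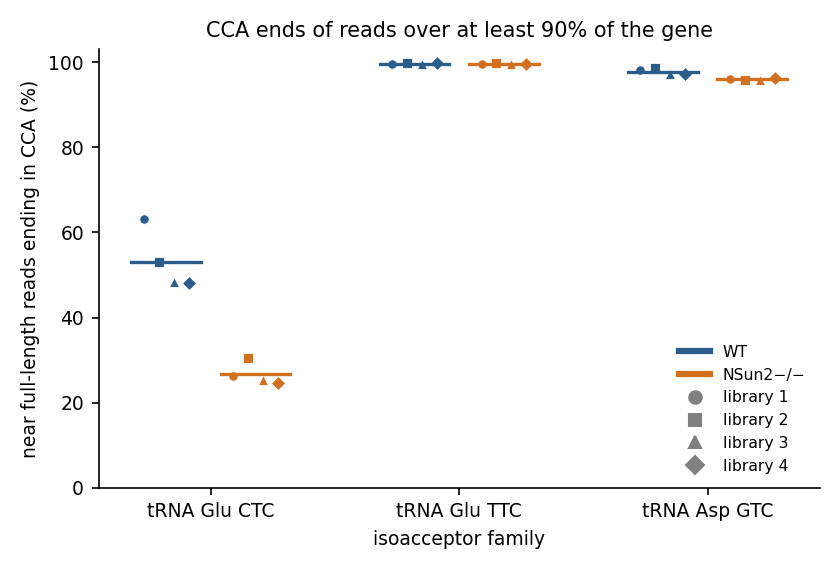
Percent of reads over at least 90% of the gene that end in CCA (y axis, linear from 0) for tRNA Glu CTC, tRNA Glu TTC and tRNA Asp GTC (x axis), where each point is 1 library and the short line is the mean of 4 libraries. GluCTC lies between 47.999% and 63.2% in WT and between 24.6% and 30.6% in NSun2−/−, while GluTTC is at 99.5% or more in all libraries.

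The ends of the other near full-length GluCTC reads were mainly a single C. Reads with C after the gene made up 18.9% to 30.5% in WT and 42.0% to 50.3% in NSun2−/−, and reads with CC 7.63% to 10.5% and 6.03% to 7.27%. Reads that ended at or before the last gene nucleotide made up 5.99% to 8.59% in WT and 15.1% to 18.9% in NSun2−/−. All 3 differences had no overlap (exact permutation test, p = 0.0286, adjusted p = 0.0408 over 10 tests). The other GluCTC ends, CCA among them, and GluTTC reads with CC or other ends gave the same p. GluTTC reads with C, with CCA or ending at or before the last gene nucleotide did not pass. The shares of an isoacceptor are parts of a whole, so that these differences are not independent. In mm9 the base after the gene is G in 4 and A in 2 of the GluCTC genes, so that a C in this place is not genomic.

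Near full-length reads also carried mismatches to the gene, which are known to arise where reverse transcription meets some modified nucleotides. Of the 144 nucleotides of the isoacceptors, 26.4% had shares of other bases that did not overlap between genotypes. At nucleotide 57, position 58 of the standard numbering, which is methylated on adenosine in many tRNAs, another base was read in 48.01% to 52.9% of GluCTC reads in WT and 49.1% to 55.7% in NSun2−/−. In GluTTC it was 7.32% to 8.76% in WT and 9.71% to 12.6% in NSun2−/−. At nucleotide 9 the share of other bases was 20.7% to 27.4% in WT and 27.8% to 31.6% in NSun2−/− in GluTTC, and 1.52% to 2.55% and 2.71% to 3.60% in GluCTC.

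1 mismatch of GluCTC, chosen after its values were seen, stood apart by its size. G64T was read in 23.1%, 23.7%, 22.0% and 21.2% of near full-length GluCTC reads in WT and in 6.22%, 5.03%, 5.79% and 5.96% in NSun2−/−. The WT libraries were about equal to each other and so were the NSun2−/− libraries. In 3′ fragments of GluCTC, which also contain this nucleotide, G64T was at 0.222% to 2.76% in all 8 libraries. It was picked for its size, so that its exact permutation p = 0.0286 is given as a description and not as support, and its cause was not tested.

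The most counted mature GluCTC read starts at nucleotide 2 and lacks 1 of the nucleotides 6 and 7. The most counted mature GluTTC read, which matches the gene in full, is shown for comparison, with the anticodon in capitals.
GluTTC mature tRNA: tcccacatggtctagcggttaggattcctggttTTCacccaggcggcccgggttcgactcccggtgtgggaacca

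Reads with this nucleotide left out made up 18.5%, 23.4%, 25.1% and 25.2% of mature GluCTC counts in WT and 30.9%, 30.4%, 35.6% and 41.5% in NSun2−/−, with no overlap. This share was chosen after the reads were seen and is given as a description. It is a share of reads that end in CCA, which were themselves a smaller part of near full-length GluCTC reads in NSun2−/−.

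As a description over the 8 tRNA-seq libraries, the families outside tRNA Glu whose 5′ fragment levels followed GluCTC best among 40 families were AlaCGC (Pearson r 0.86), SerGCT (0.55) and ArgCCG (0.51). For GluTTC they were ArgCCG (0.80), MetCAT (0.72) and HisGTG (0.70), and the isoacceptors had r 0.52 with each other. These values share libraries and scaling.

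Pol III occupied the same tRNA Glu genes in both genotypes. All 12 transcribed genes passed as bound in WT (a minimum of 10 reads in each WT library and of 2-fold over the WT input) and in NSun2−/−. None of the other 29 genes was bound in WT, and chr1.trna999-GluCTC, which has many input reads, met the same thresholds in NSun2−/− only. The libraries held 36866 and 63136 counts in WT and 95112 counts in NSun2−/−. The list of transcribed genes was itself made from Pol III ChIP-seq of this tissue, so that the binding of its genes in WT is no finding. There is 1 NSun2−/− library, so no test was made and the spread between the WT libraries is given instead.

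The 6 transcribed GluCTC genes together had 25742 and 24867 RPM (counts scaled to the total of the library) in the WT libraries, 31058 in the NSun2−/− library, and 3832 and 2486 in the inputs of WT and NSun2−/−. The 6 GluTTC genes had 13129 and 17470 in WT, 19850 in NSun2−/−, and 2199 and 2486 in the inputs. The highest GluCTC gene was chr11.trna1912 in 2 of the 3 Pol III libraries, with 5561 and 6240 in WT and 7854 in NSun2−/−, and the lowest was chr3.trna303, with 2007, 2154 and 2723. The lowest GluTTC gene was chr9.trna961, with 1004 and 1188 in WT and 1114 in NSun2−/−.

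**Figure D5:**
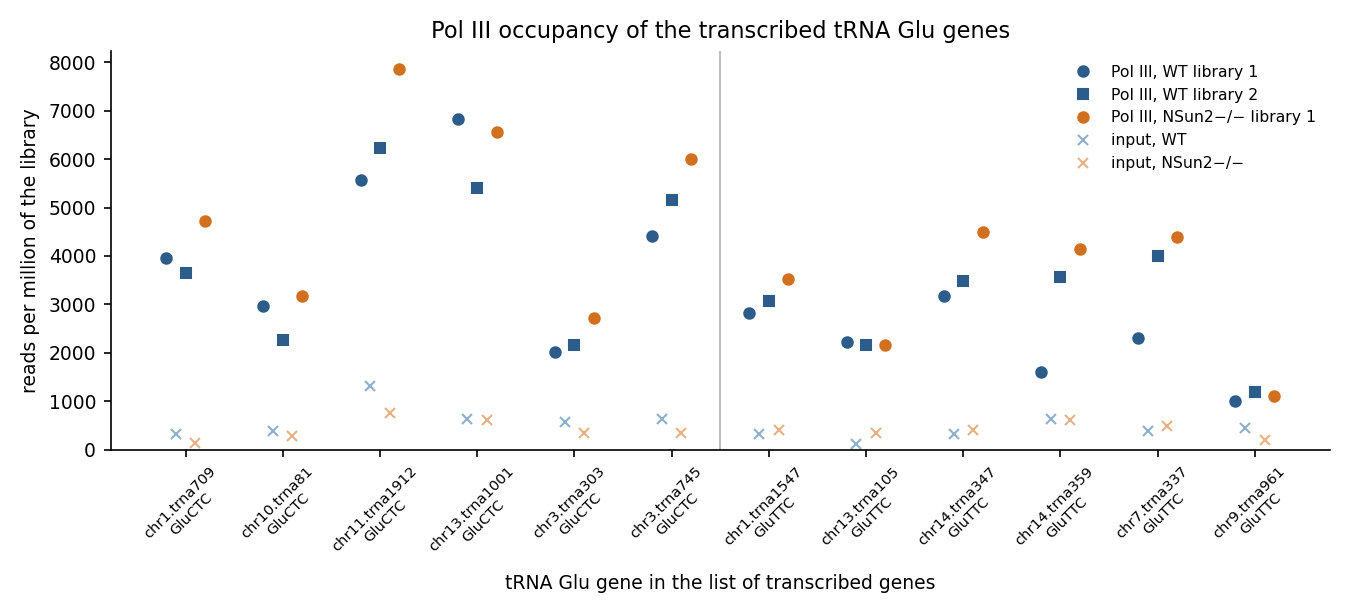
RPM, the counts scaled to the library total (y axis, linear from 0), at each of the 12 transcribed tRNA Glu genes (x axis, GluCTC left and GluTTC right of the line) in 2 WT and 1 NSun2−/− Pol III libraries and in 1 input library per genotype. All 12 genes lie above their inputs, and the NSun2−/− library lies above both WT libraries at 9 of the 12 genes. Over all 12 genes the NSun2−/− library runs from 1114 at chr9.trna961 to 7854 at chr11.trna1912.

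Against the mean of the WT libraries, the log2 ratio of NSun2−/− had a median of 0.32 over the GluCTC genes (0.11 to 0.41) and 0.34 over the GluTTC genes (−0.02 to 0.79), beside 0.17 over all 220 genes bound in WT. Scaled to the total of the bound genes it was 0.10 for GluCTC, 0.12 for GluTTC and −0.04 over all bound genes. WT library 2 against library 1 gave a median of −0.01 over the GluCTC genes (−0.39 to 0.22) and 0.18 over the GluTTC genes (−0.05 to 1.14). The largest ratios to WT, at chr14.trna359-GluTTC (0.79) and chr7.trna337-GluTTC (0.52), belong to the genes that also differed most between the WT libraries (1.14 and 0.79).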

How the data were processed

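RNA bisulphite sequencing, tRNA-seq and Pol III ChIP-seq of mouse back skin were used as the authors deposited them. For bisulphite data the authors mapped reads with Bismark 0.7.6 and deposited, per cytosine, counts of unconverted and converted reads and their percent. Positions are mm9 and are counted from 0, since 100% of the listed positions fall on C or G when read so and 51.6% when counted from 1. For tRNA-seq the deposited counts per read sequence and gene, and for Pol III the deposited counts per tRNA gene, were made by the authors from Bowtie alignments, with multiply matching reads distributed among genes. Bismark, Bowtie and DESeq are named in the submitters' processing notes. Per the methods, Bismark used reads with a unique best alignment. How reads came to be listed at several genes of identical sequence is not stated there.

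Groups were taken from the sample descriptions. The description of WT Pol III library 1 names Pol II in its title and POLR3A as its antibody, and it was used as Pol III. The members and the lists of families were chosen with earlier results of these data known. Every tRNA Glu gene was counted, and those in the study's list of transcribed genes were named. Cytosines at positions 34, 38 and 48 to 50 were reported, with AspGTC and GlyGCC for comparison, the 3 families most alike in log2 5′ fragment CPM, and per isoacceptor the 3 most counted 5′ fragments and the most counted mature tRNA. Some sequences are not reported here. The 3′ fragments shown were among the 2 most counted of their isoacceptor and were chosen after the values were seen.

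A cytosine was tested where 3 or more libraries of each genotype covered it with 10 or more reads, with edgeR's quasi-likelihood test on unconverted and converted counts over all cytosines. It was called below an adjusted p of 0.05 where levels differed by 10 points or more. Values per isoacceptor were compared by permuting the genotypes exactly (two-sided, 70 assignments, smallest p 0.0286) or by sign flips over 256 (smallest p 0.0078), with Benjamini-Hochberg adjustment. Read sequences were placed on the genes with up to 4 mismatches. 5′ fragments were 25 to 40 nucleotides from nucleotide 1, mature tRNA ended in CCA and covered at least 90% of the gene, and families were tested with edgeR after TMM. Pol III log2 ratios used RPM with a pseudocount of 1, and a gene counted as bound from 10 reads in each WT library and 2-fold over the WT input. Python 3.11.15, pandas 2.3.3, numpy 2.4.6, pysam 0.24.0, matplotlib 3.10.9, R 4.3.3, edgeR 4.0.16, DESeq2 1.42.0 and limma 3.58.1 were used. The edgeR tests were also run on simulated data. The simulated bisulphite counts had no background that differed between libraries, so that they cannot show how the test behaves under such a background. The alternatives were another tool, scaling, coverage minimum, read definition or weighting, a subtraction of background, a replicate block and leaving out each library. Subtracting the background from the comparison of isoacceptors and values of NSun2−/− library 3 alone were added after the data were seen. So was all work on CCA ends, on G64T and on the nucleotide left out of mature GluCTC reads.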

Additional observations from a re-analysis of the deposited data

Results flagged for a closer look

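Of 86 groups of 4 libraries, 9 had a library that stood apart from the other 3 (by the 95% limit of Dixon's test, which chance passes in about 1 in 20 groups). In WT bisulphite libraries, library 4 had 10.8% unconverted reads at C34 of GluCTC against 3.00% to 3.95% in the others, and 9.60% at its cytosines 5′ of the anticodon against 3.03% to 3.77%. In NSun2−/−, after subtraction of the background, library 3 had 15.7% at C50 of GluCTC against 7.22% to 8.25%, 61.8% at C49 of GluTTC against −13.8% to −7.74%, and 63.1% at C50 of GluTTC against −2.49% to 7.40%. Library 3 is the one with the lowest background at the 5′ cytosines.

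In tRNA-seq, the library that stood apart was NSun2−/− library 2 each time. 5′ fragments made up 22.0% of its GluTTC reads against 7.48% to 9.88% in the other NSun2−/− libraries, and full-length GluTTC reads without CCA 0.250% against 0.312% to 0.317%. Its GluCTC 5′ fragments had a mean length of 31.5 nucleotides against 32.7 to 32.95, and 30.4% of them ended between nucleotides 33 and 37 against 61.5% to 67.8%. In the same library 44.5% of GluCTC 5′ fragments ended at nucleotide 30.

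The difference between GluCTC and GluTTC depended on the genotype by an exact permutation test in 3 cases before adjustment. At C48 it was smaller in NSun2−/− by 25.5 points (a change of −25.5, p = 0.0286, adjusted p = 0.0714), and at C50 it changed by −19.8 points (p = 0.0286, adjusted p = 0.0714, exact permutation test). The share of near full-length reads ending in CCA changed by −26.5 points more in GluCTC than in GluTTC (exact permutation test, p = 0.0286, adjusted p = 0.0286).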

How the results depend on the processing

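Of 376 values from leaving out 1 library, 355 counted as unchanged, and of 152 values under the other alternatives 138 did. Unchanged tested values kept their side of the threshold, and unchanged counts and untested values stayed close to the main value. A change of sign where neither value passed also counted as unchanged. The GluCTC difference at C48, for example, ranged from −7.96 to 2.94 points when 1 library was left out. The same replicate numbers did not pair the samples. This was judged by the deviations of each library from the mean of its genotype, not by the levels themselves. Between WT and NSun2−/− libraries of the same number, these deviations correlated at −0.56 to 0.13 in tRNA-seq and −0.23 to 0.27 in bisulphite data. Only library 3 matched its own number best in each. With a replicate block the smallest exact p of 4 pairs is 0.125, so that C49 and C50 (−51.1 and −65.9 points in GluCTC, −50.8 and −46.1 in GluTTC) and the CCA share of GluCTC (−26.5) could not pass, while the cytosines called were 12 lower in each isoacceptor and 33 and 21 higher.

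After subtraction of the background, GluCTC minus GluTTC was −19.3 points at C49 (adjusted p = 0.0586, exact sign-flip permutation test) and −4.37 at C50. With at least 30 reads 0 cytosines were called higher in either isoacceptor, and with limma 0, with 7 of GluCTC lower. Pol III at GluCTC had a median log2 ratio of 0.10 when scaled to the bound genes. The CCA share of GluTTC differed by −0.0902 points among reads without a mismatch, with the sign reversed, and then passed (adjusted p = 0.0286, exact permutation test).

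Leaving out 1 library moved the GluCTC difference to 17.6 to 33.2 points at C34, 13.8 to 25.7 at C38 and 13.7 to 26.1 at the 5′ cytosines, and the GluTTC difference to 16.5 to 32.99 at C48, 21.9 to 39.0 at C38 and 17.0 to 34.6 at the 5′ cytosines, each highest without NSun2−/− library 3, when they passed. The genotype difference of GluCTC minus GluTTC ranged from −30.0 to −23.6 points at C48, −4.85 to 7.22 at C49 and −23.8 to −11.4 at C50, and it passed at all 3 positions without that library. Cytosines called higher ranged from 0 to 101 in GluCTC (0 without NSun2−/− library 1, 4 without 4, 101 without 3, and 8 to 14 without WT libraries 1, 2 or 3) and from 0 to 83 in GluTTC (0 without NSun2−/− library 1 or 4, 83 without 3, and 8 to 11 without WT libraries 1, 2 or 3). Over all genes, 180 cytosines were called lower and 140 higher, with at least 30 reads 119 and 1, with limma 125 and 11, and leaving out 1 library gave 11 to 526 higher. 5′ fragment families called lower were 0 with TMM, 6 by total counts and 9 with DESeq2. The cause of these changes was not tested.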

Other observations

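The cytosines 3′ of the VL junction were not part of the comparisons above. Between gene nucleotides 55 and 66, in the TΨC arm and, for nucleotide 66, the acceptor stem, the mean unconverted level in WT was 9.88% in GluCTC and 7.56% in GluTTC, and the differences between genotypes did not pass (exact permutation test, p = 0.143 for both). At the single positions outside the VL junction, WT means over the genes were 2.99% to 14.1% in GluCTC and 3.63% to 23.9% in GluTTC, and NSun2−/− means were 16.3% to 31.6% and 26.5% to 48.7%.

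G64T differed between the read classes of GluCTC. It was at 25.4% to 28.1% of mature reads and 16.3% to 18.7% of full-length reads without CCA in WT, and at 10.7% to 13.3% and 2.54% to 3.77% in NSun2−/−. The most counted GluCTC read without CCA carried another mismatch, at nucleotide 57, and made up 14.8% to 22.7% of that class in WT and 28.7% to 31.4% in NSun2−/−.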
